A study of Mus musculus with 12 samples.

Results

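The genes described here are 8 components of lipoprotein secretion and lipid efflux: the apolipoproteins Apoe, Clu and Apod, the particle-remodelling proteins Lcat and Pltp, the efflux transporters Abca1 and Abcg1, and the uptake receptor Lrp1. They were taken by symbol from a deposited table of 24421 gene entries, and all 8 were among the 15464 genes with values high enough to test. The RNA came from cells that carried green fluorescent protein (GFP), sorted from the cerebellum of Aldh1l1-GFP reporter mice. Mice were taken on postnatal days P1, P7, P14 or P28, with 3 libraries per age and 12 in all. Every group carried the reporter, mice of either sex on the C57/BL6J background were used in the study, no treatment was given, and no sorted GFP-negative cells were analysed here. In this reporter, GFP is driven by the promoter of Aldh1l1, a gene of folate metabolism that marks astrocytes, so the sort keeps whatever cells have GFP. Nothing in the sources used here says whether a library came from 1 animal or from pooled animals, and the p-values below therefore measure the spread between libraries. The depth on genes was 6399499 to 14733985 reads.

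Astrocytes are the main source of lipoproteins in the brain, which the lipoproteins of the blood largely do not enter. Abca1 moves cholesterol and phospholipid out of the cell onto lipid-poor apolipoprotein E, Abcg1 adds more lipid to particles that already carry some, Lcat turns their cholesterol into cholesteryl ester, and Pltp moves phospholipids between particles. The finished particles are taken up by neurons and glia through receptors of the low-density lipoprotein family, among them Lrp1. Transcription of several of these genes, Abca1, Abcg1 and Apoe included, is known to respond to the liver X receptors, which sense oxidized cholesterol and bind direct repeats of AGGTCA set 4 bases apart (DR4).

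The stretch of 250 bases before the start site is printed for 3 of the genes, because the results below turn on Abca1 and Apoe, which took different courses, and on Apod, which peaked at P14. The sequences are from RefSeq on GRCm38.p6 and are written 5′ to 3′ along the strand of the gene, which is the minus strand for all 3. In the Abca1 sequence (chr4:53159896-53160145), capitals mark a match to a relaxed DR4 pattern, NGGTNA repeated after 4 bases (N is any base), on the strand opposite to the gene and 67 to 52 bases before the start. The Apoe sequence is that of the first of its start sites in the table (chr7:19699189-19699438), and the Apod sequence is chr16:31314809-31315058.
Abca1: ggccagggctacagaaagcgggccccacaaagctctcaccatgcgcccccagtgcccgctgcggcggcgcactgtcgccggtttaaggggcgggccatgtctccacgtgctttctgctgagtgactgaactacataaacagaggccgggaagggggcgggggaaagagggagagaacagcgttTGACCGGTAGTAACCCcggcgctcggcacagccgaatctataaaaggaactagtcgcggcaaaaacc
Apoe: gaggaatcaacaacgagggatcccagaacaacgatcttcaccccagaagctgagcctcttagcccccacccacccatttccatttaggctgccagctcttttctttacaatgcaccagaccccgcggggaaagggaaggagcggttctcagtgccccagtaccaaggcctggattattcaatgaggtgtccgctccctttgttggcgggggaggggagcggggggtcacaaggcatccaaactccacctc
Apod: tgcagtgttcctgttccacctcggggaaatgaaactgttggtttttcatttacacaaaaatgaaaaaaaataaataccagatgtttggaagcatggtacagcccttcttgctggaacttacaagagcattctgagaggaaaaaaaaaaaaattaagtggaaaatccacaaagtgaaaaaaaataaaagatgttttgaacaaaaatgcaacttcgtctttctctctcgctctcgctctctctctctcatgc

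The table held such sequences for 6 of the 8 genes, with 3 start sites for Apoe, and did not list Clu or Abcg1. The motifs were searched on both strands of 32851 promoters of this length. The relaxed DR4 pattern was found in 0.621% of them, and Abca1 was the only gene of the 6 with a match. The exact DR4, AGGTCA repeated after 4 bases (0.0152% of promoters), and the nuclear factor I palindrome, TTGGC and GCCAA set 5 bases apart (0.0365%), matched none of the 6 genes. The Abca1 sequence also held an E-box CACGTG (6.02% of promoters), a TATA box TATAAA (12.4%) and GC boxes GGGCGG (32.7%), none of which overlapped the DR4 match. GC boxes also stood before Pltp and Lrp1, and a TATA box before the second Apoe start site. The Apoe and Apod sequences printed here held none of the 6 patterns. Only these 250 bases were searched, so a missing match says nothing about sites elsewhere in or near a gene. The part of any of these motifs in the courses below was not tested.

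From P1 to P7, 5 of the 8 genes fell and none was called higher. From P7 to P14, 7 rose and none was called lower. From P14 to P28, 4 rose and 1, Abcg1, fell. Genes were called at a Benjamini-Hochberg adjusted p under 0.05 in limma, over all genes tested, and by this rule 7.7%, 20.9% and 14.4% of all genes were called in the 3 steps. Higher and lower calls made up 3.47% and 4.24% of all genes in the first step, 10.8% and 10% in the second, and 5.68% and 8.76% in the third. The median log2 fold change of the 8 genes was -1.16, 1.71 and 0.64 in these steps, against 0.04, -0.09 and -0.12 for all genes tested. The count of 5 in the last step was the least stable, with 3 genes called without replicate 2 of P14 and 2 without replicate 3 of P14.

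**Figure D1:**
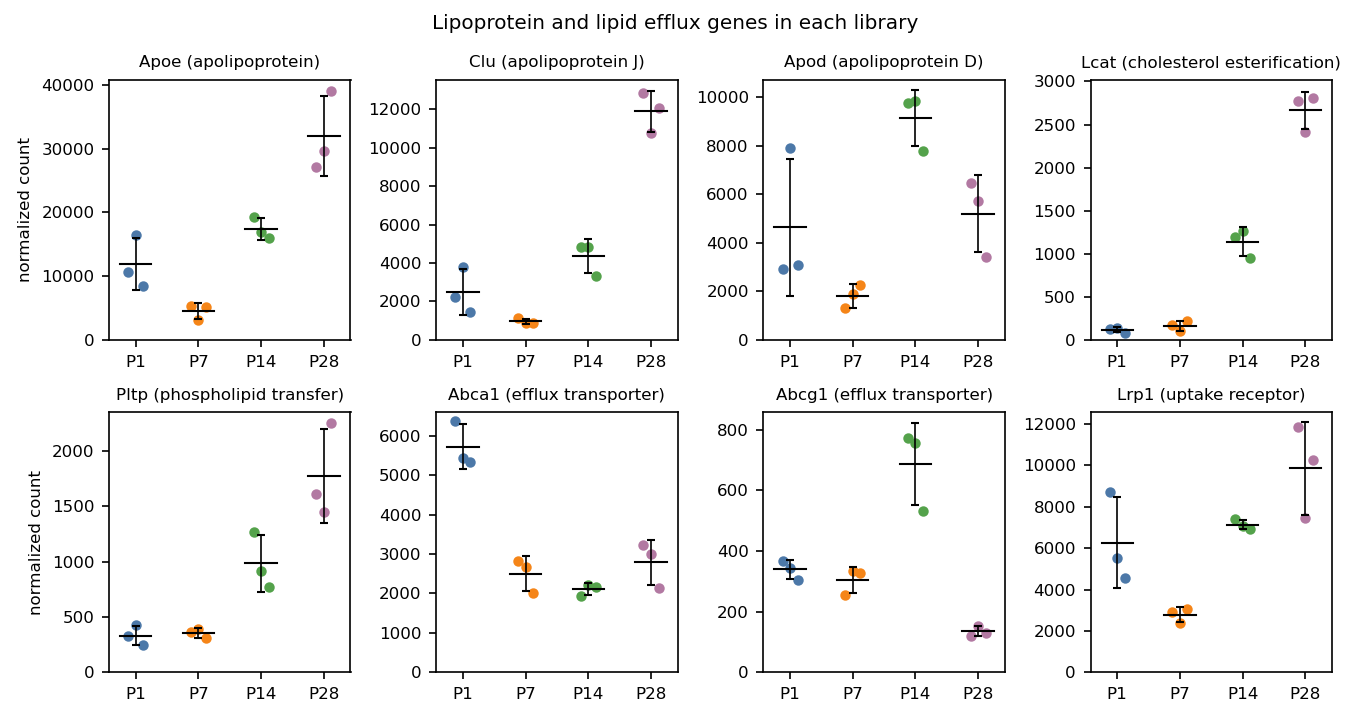
Normalized count of each gene (vertical axis, linear, starting at 0) in the 3 libraries of each time point (points), with the mean (horizontal line) and SD (bars, n = 3). Apoe, Clu, Apod and Lrp1 had their lowest mean at P7, Abca1 its highest at P1, Abcg1 and Apod their highest at P14, and Lcat and Pltp rose after P7.

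Apoe, which encodes the chief apolipoprotein of brain particles (chr7:19696109-19699188, minus strand, GRCm38), fell from P1 to P7 and then rose at each step. Its normalized counts, which are reads divided by the size factor of the library, were 10700, 16506 and 8503 in the P1 libraries and 5351, 3132 and 5238 in those of P7. They were 19324, 16929 and 16028 in the P14 libraries and 27123, 29621 and 39032 in those of P28. The P7 libraries lay below all others and the P28 libraries above all others, while P1 and P14 overlapped. In order of age, the means were 11903 ± 4135, 4574 ± 1250, 17427 ± 1704 and 31926 ± 6280 (SD, n = 3). Apoe changed by -1.37 on the log2 scale from P1 to P7 (SE 0.25, adjusted p = 0.00339) and by 1.97 from P7 to P14 (adjusted p = 5.85e-05). The difference between P1 and P14, a comparison in which 20.4% of all genes were called, was not called (0.60, unadjusted p = 0.0285, adjusted p = 0.104).

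The further rise of Apoe to P28 was smaller, with a log2 fold change of 0.86 (adjusted p = 0.0321), and it was not called in every setting. The adjusted p was 0.0602, 0.0860 and 0.108 without replicate 1, 2 or 3 of P14, 0.0946 without replicate 3 of P28, and 0.0781 with scaling by library totals. Over the whole course from P1 to P28, Apoe rose by 1.46 on the log2 scale (adjusted p = 4.31e-04), which was 2.68-fold by the means.

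Clu encodes clusterin, also called apolipoprotein J, a secreted chaperone that travels with lipid particles (chr14:65968483-65981547, plus strand). It took the same order of time points as Apoe, with the lowest mean at P7 and the highest at P28. Normalized counts of Clu were 2250, 3817 and 1438 in the P1 libraries, 1120, 893 and 878 in those of P7, 4856, 4852 and 3320 in those of P14, and 12838, 10754 and 12067 in those of P28. All P7 libraries lay below and all P28 libraries above those of the other time points, and the P1 and P14 ranges overlapped. The log2 fold changes were -1.27 (SE 0.27, adjusted p = 0.00984), 2.16 (adjusted p = 6.25e-05) and 1.47 (adjusted p = 0.00378) in the consecutive steps. From P7 to P28 the mean rose 12.3-fold, from 964 ± 136 to 11887 ± 1054. P14 was also above P1 (0.89, adjusted p = 0.0327), so that every pair of neighbouring levels of Clu differed beyond the spread.

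Within a library, the ratio of 2 genes does not depend on the scaling. The ratio of Clu to Apoe was 0.210, 0.231 and 0.169 at P1 and 0.473, 0.363 and 0.309 at P28. All 3 P28 values were above all P1, P7 and P14 values, of which the highest was 0.287. This ratio and the others below were chosen after the values had been seen, and are given without a test.

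Apod, apolipoprotein D, is a lipocalin that carries small lipids such as arachidonic acid (chr16:31296192-31314808, minus strand). It was the only apolipoprotein of the 3 with its highest mean at P14. Normalized counts of Apod were 2922, 7915 and 3092 in the P1 libraries, 1309, 1883 and 2278 in those of P7, 9755, 9848 and 7803 in those of P14, and 6467, 5713 and 3424 in those of P28. Replicate 2 of P1 stood well above the other P1 libraries and reached into the P14 range, and the P7 libraries lay below all others. From P7 to P14 Apod rose by 2.35 on the log2 scale (SE 0.34, adjusted p = 1.91e-04), 5.01-fold by the means, from 1823 ± 487 to 9135 ± 1155.

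The other steps of Apod were less firm. The fall from P1 to P7 (-1.22, adjusted p = 0.0402) was near the threshold. Without replicate 2 of P1 the log2 fold change was -0.76 (adjusted p = 0.160), and without replicate 1, 2 or 3 of P7 or of P14 the adjusted p was 0.0534 to 0.167. The P14 libraries do not enter this fold change, which stayed at -1.22 without each of them, and only the adjusted p moved. The adjusted p was 0.0503 with library totals, 0.0508 with a pseudocount of 0.1 and 0.0549 without the filter on low values. From P14 to P28 the libraries did not overlap, but the log2 fold change of -0.86 was not called (adjusted p = 0.105). It was called without replicate 2 of P1 (adjusted p = 0.0319), with the P14 and P28 libraries alone (0.0450) and with scaling by library totals (0.0423). P28 and P1 did not differ beyond the spread (0.27, adjusted p = 0.560), and this difference was 0.74 without replicate 2 of P1 and 0.02 without replicate 1 of P1. The same replicate 2 of P1 had the highest summed level of 8 mural and fibroblast markers, 24619 against 14642 and 6034 in the other P1 libraries, and 5518 normalized counts of the fibroblast gene Dcn against 1585 and 1370. That library was also the highest of P1 for other lists, among them endothelial (3687 against 791 and 1135) and border macrophage markers (2055 against 1117 and 541). It was the highest of P1 for Apoe and Clu as well. At P7, replicate 2 had the highest mural and fibroblast sum (19952 against 7594 and 11014), but its Apod (1883) lay between 1309 and 2278. The part of any of these cells in the Apod level was not tested.

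Lcat, which encodes lecithin-cholesterol acyltransferase (chr8:105939551-105943382, minus strand), had the largest range of the 8 genes. Normalized counts of Lcat were 124, 144 and 84.1 in the P1 libraries, 171, 106 and 222 in those of P7, 1197, 1267 and 947 in those of P14, and 2771, 2410 and 2807 in those of P28. P1 and P7 overlapped, and each later time point lay wholly above the one before. The first step, of 0.47 on the log2 scale, was not called (adjusted p = 0.435). From P7 to P14 Lcat rose by 2.82 (SE 0.29, adjusted p = 9.67e-06), and from P14 to P28 by 1.23 (adjusted p = 0.0118). The last call was lost without replicate 3 of P14 (1.11, adjusted p = 0.0541). From P1 to P28 the mean rose 22.7-fold, from 117 ± 30.4 to 2663 ± 220 (log2 fold change 4.52, adjusted p = 4.67e-08).

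Pltp, which encodes phospholipid transfer protein (chr2:164839518-164857711, minus strand), followed the same order as Lcat with a smaller range. Normalized counts of Pltp were 327, 426 and 246 in the P1 libraries, 368, 390 and 309 in those of P7, 1269, 915 and 772 in those of P14, and 1613, 1448 and 2249 in those of P28. P1 and P7 overlapped and did not differ beyond the spread (0.12, adjusted p = 0.895), while P14 and P28 each lay above the time points before. From P7 to P14 Pltp rose by 1.44 (SE 0.26, adjusted p = 0.00115), and from P1 to P28 by 2.42 (adjusted p = 8.21e-06), or 5.32-fold by the means.

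The rise of Pltp from P14 to P28 was at the threshold (0.85, adjusted p = 0.0415). The call was lost without replicate 1 of P1, any replicate of P7, replicate 2 or 3 of P14 or replicate 3 of P28, with adjusted p of 0.0526 to 0.153. Without the P1 or P7 libraries, which do not enter this fold change, it stayed at 0.85 and only the adjusted p moved. The call was also lost with scaling by library totals (0.116), without the filter on low values (0.0543) and with the P14 and P28 libraries alone (0.0723). Exons of Pltp share 495 bases with Ctsa, a lysosomal carboxypeptidase gene on the opposite strand, and the use of strand in counting is not given in the sources used here. The normalized counts of Ctsa were 571, 640 and 577 at P7, 874, 1287 and 1178 at P14, and 744, 1477 and 1005 at P28. Reads from the shared bases cannot be told apart between the genes, and their part in the Pltp level was not tested.

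Abca1, the transporter that loads lipid onto lipid-poor apolipoproteins (chr4:53030787-53159895, minus strand), had its highest level at P1 and did not return to it. Normalized counts of Abca1 were 6377, 5445 and 5335 in the P1 libraries, 2835, 2678 and 2007 in those of P7, 1948, 2227 and 2168 in those of P14, and 3234, 2999 and 2145 in those of P28. The P1 libraries lay above all others, and the later time points overlapped one another. From P1 to P7 Abca1 fell by 1.20 on the log2 scale (SE 0.18, adjusted p = 0.00101), and P28 stayed below P1 (-1.05, adjusted p = 5.05e-04). The means went from 5719 ± 573 to 2506 ± 440, 2114 ± 147 and 2793 ± 573. The changes from P7 to P14 (-0.23, adjusted p = 0.426) and from P14 to P28 (0.38, adjusted p = 0.174) were not called, although the latter was called without replicate 3 of P28 (0.56, adjusted p = 0.0451).

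Abca1 fell with Apoe in the first week, and in the second Apoe rose while the change of Abca1 was not called. Within libraries, the ratio of Apoe to Abca1 was 1.68, 3.03 and 1.59 at P1 and 1.89, 1.17 and 2.61 at P7. It was 9.92, 7.60 and 7.39 at P14 and 8.39, 9.88 and 18.2 at P28. Every P14 and P28 library lay above every P1 and P7 library. The ratio of Lcat to Abca1 had means of 0.0205, 0.0702, 0.540 and 0.990 in order of age, with no overlap between any pair of time points.

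Abcg1, the transporter that acts on particles already carrying lipid (chr17:31057675-31117988, plus strand), peaked at P14 and was lowest at P28. Normalized counts of Abcg1 were 368, 344 and 306 in the P1 libraries, 256, 334 and 327 in those of P7, 774, 757 and 531 in those of P14, and 121, 153 and 131 in those of P28. P1 and P7 overlapped, all P14 libraries were above all others, and all P28 libraries below. The 4 means were 339 ± 31.3, 306 ± 42.9, 688 ± 136 and 135 ± 16.4 in order of age. From P7 to P14 Abcg1 rose by 1.16 (SE 0.26, adjusted p = 0.00500), and from P14 to P28 it fell by 2.32 on the log2 scale (adjusted p = 2.42e-04). P28 was also below P1 (-1.32, adjusted p = 0.00125), and P7 did not differ from P1 beyond the spread (-0.16, adjusted p = 0.855). It was the gene with the fewest reads at P28, and between 83 and 731 reads were counted on it in each of the 12 libraries.

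Of the consecutive steps, Abca1 was called in the first and Abcg1 in the other 2, and the difference between their courses was not tested. The ratio of Abca1 to Abcg1 within libraries was 17.3, 15.8 and 17.4 in the P1 libraries, 11.1, 8.02 and 6.14 in those of P7, 2.52, 2.94 and 4.08 in those of P14, and 26.7, 19.6 and 16.4 in those of P28. It was lowest in all 3 libraries of P14, and the P1 and P28 values overlapped.

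Lrp1, the endocytic receptor that takes up Apoe-bearing particles (chr10:127538161-127621148, minus strand), shared the low level at P7. Normalized counts of Lrp1 were 8732, 5547 and 4539 in the P1 libraries, 2929, 2368 and 3055 in those of P7, 7400, 7080 and 6951 in those of P14, and 11865, 7446 and 10263 in those of P28. The P7 libraries lay below all others, P1 overlapped P14 and P28, and P28 lay above P14. Lrp1 fell by 1.12 on the log2 scale from P1 to P7 (SE 0.22, adjusted p = 0.00576) and rose by 1.37 from P7 to P14 (adjusted p = 5.11e-04). The later difference of 0.44 from P14 to P28 was not called (adjusted p = 0.201). The net rise from P1 to P28 (0.68, adjusted p = 0.0283) was lost without replicate 2 or 3 of P1 or replicate 1 or 3 of P28, with adjusted p of 0.0658 to 0.136. With scaling by library totals it was 0.25 (adjusted p = 0.379), and with the P1 and P28 libraries alone the adjusted p was 0.0983.

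**Figure D2:**
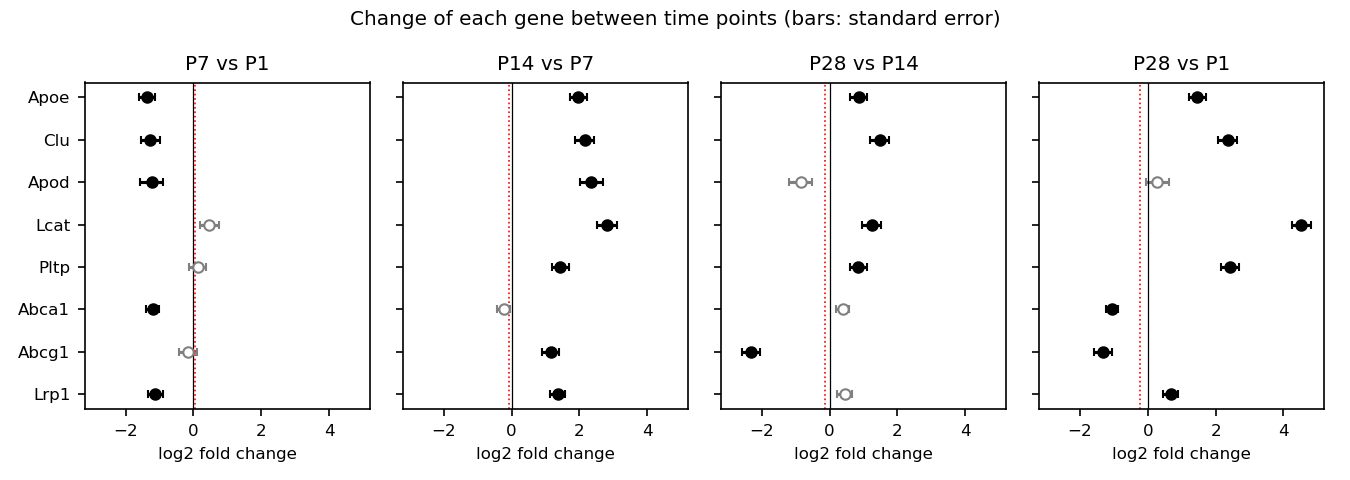
Log2 fold change of each gene (horizontal axis) in the 3 consecutive steps and from P1 to P28, with the standard error (bars). Filled points passed the adjusted threshold, open points did not, and the red dotted line is the median of all genes tested. In the step from P7 to P14 all points but that of Abca1 are filled and to the right of 0.

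From P1 to P28, 5 of the genes were higher (Apoe, Clu, Lcat, Pltp and Lrp1), Abca1 and Abcg1 were lower, and Apod was not called. Of all genes, 34.6% were called in this comparison, 14.6% higher and 20% lower. Libraries did not overlap between P1 and P7 for 5 of the 8 genes, between P7 and P14 for 7 and between P14 and P28 for 7, against 38.3%, 46.1% and 26.1% of all genes. The 8 genes together took 0.354% ± 0.0845 of the reads on genes at P1 and 0.156% ± 0.0137 at P7 (SD, n = 3), then 0.418% ± 0.0422 and 0.546% ± 0.0401 at the later time points. This share needs no size factor. In such sorted samples, fewer cells that express a gene and less of its RNA per cell cannot be told apart.

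Levels of different genes were compared per kb of merged exons. Apoe had the highest level of the 8 at every time point, with means of 5567, 2139 and 8151 normalized counts per kb from P1 to P14 and 14932 ± 2937 (SD, n = 3) at P28. Its rank at P28 was 14 among the 23350 genes with a length. Apod was second from P1 to P14, at 1802, 708 and 3545 per kb, and Clu was second at P28, at 3458 ± 307. Apod and Lcat then stood side by side, at 2018 ± 615 and 1984 ± 164 per kb, and their ranges overlapped.

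Abca1 went from rank 4 of the 8 at P1, with 552 ± 55.3 normalized counts per kb, to rank 7 at P14 and P28, with 204 ± 14.2 and 269 ± 55.3. Lcat went the other way, from rank 7 at P1 and P7 (87.4 ± 22.6 and 124 ± 43.2) to rank 4 at P14 (847 ± 125) and P28. Abcg1 was lowest throughout, with 46.5 ± 4.29 per kb at P1 and 18.5 ± 2.25 at P28. With the length of the longest transcript in place of merged exons the order of the 8 genes was the same at every time point, but the P28 levels of Apoe and Clu were 22674 and 6567 per kb.

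**Figure D3:**
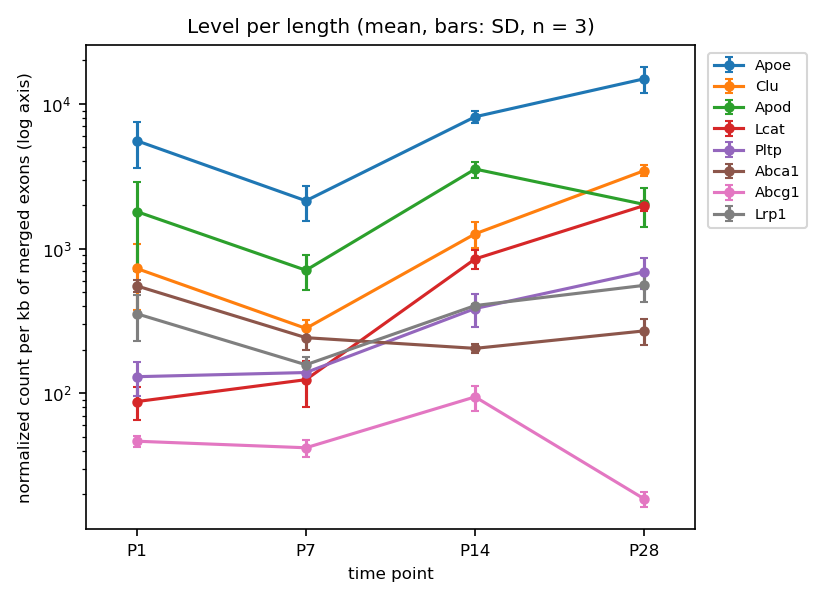
Mean normalized count per kb of merged exons (vertical axis, log scale) of each gene at each time point, with the SD (bars, n = 3). Apoe is the highest line throughout, Abcg1 the lowest, and the lines of Lcat and Abca1 cross between P7 and P14.

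Courses were also compared by the root mean square difference of log2 values over the 12 libraries, each gene centred on its own mean. Among the 8 genes, Apoe and Clu (0.425) and Apoe and Lrp1 (0.511) were closest, and Lcat stood farthest from Abca1 and from Abcg1 (2.29 for each). Of the 10209 genes with a mean of at least 100, Ppap2b lay near to Apoe (0.189), against a median distance of 1.20. Ppap2b had means of 4754, 1586, 7188 and 13671 normalized counts in order of age. Nearest to Clu were Tmem47 (0.264) and Bag3 (0.266), and nearest to Lrp1 were Phlpp1 (0.203) and Aldh5a1 (0.206). Nearest to Lcat were Cyp2d22 (0.317) and Prex2 (0.397), and nearest to Pltp were Agpat5 (0.213) and St3gal4 (0.244). Abca1 was nearest to the neuron-glia adhesion gene Astn1 (0.223) and to Tspan12 (0.276), Abcg1 to Sgsm1 (0.269) and Med20 (0.276), and Apod, with the largest distances, to Prrg1 (0.403) and Plod1 (0.429).

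The sorted cells carried astrocyte markers at every time point, and their level moved with that of several of the genes above. All 11 astrocyte markers were detected, and summed to 68079 to 85070 normalized counts in the P1 libraries, 33397 to 60689 in those of P7, 174596 to 216068 in those of P14 and 403295 to 468224 in those of P28. Apoe, Clu and Lrp1 had the same order of time points. Aldh1l1 itself had 6441, 4741 and 3841 normalized counts in the P1 libraries, 1985, 936 and 1488 in those of P7, 1834, 1978 and 1824 in those of P14, and 2451, 3338 and 2974 in those of P28, and like Abca1 it was highest at P1. The part of the astrocyte share of the sorted cells in these courses was not tested.

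Markers of other cells were present too. The 10 oligodendrocyte markers were all detected and summed to 1570 to 2646, 22398 to 34556, 349451 to 397877 and 105832 to 146521 in order of age, and thus had their highest level at P14, as Abcg1 and Apod did. Neuron, microglia and endothelial markers also had their highest mean at P14 (36218, 3889 and 6508). From P1 to P28 the mean oligodendrocyte sum rose from 2229 to 132484, while Abcg1 fell from 339 to 135. The 7 oligodendrocyte precursor markers were lowest at P28, at 2606 to 3041, and at 7369 to 11770, 3913 to 4814 and 7615 to 8702 at P1, P7 and P14. The 12 microglia markers summed to 1063 to 2093, 1690 to 2620, 3041 to 4591 and 2191 to 3022 in order of age. The 8 choroid plexus markers, of which Ttr made up most after P1, ranged from 1219 to 2646, 49031 to 129812, 1315 to 110936 and 18003 to 184437 in the same order. The part of these cells in the levels of the 8 genes was not tested. At P14, the library with a choroid plexus sum of 1315 had 16028 normalized counts of Apoe and 3320 of Clu, and those with sums of 110936 and 64480 had 19324 and 16929 of Apoe and 4856 and 4852 of Clu. At P1, the library with the highest sum, 2646, had the most Apoe (16506) and Clu (3817). The order differed at P7 and P28. The P7 replicates, in order, had sums of 62190, 129812 and 49031. Their Apoe was 5351, 3132 and 5238, and their Clu 1120, 893 and 878. Those of P28 had sums of 105404, 184437 and 18003. Their Apoe was 27123, 29621 and 39032, and their Clu 12838, 10754 and 12067.

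**Figure D4:**
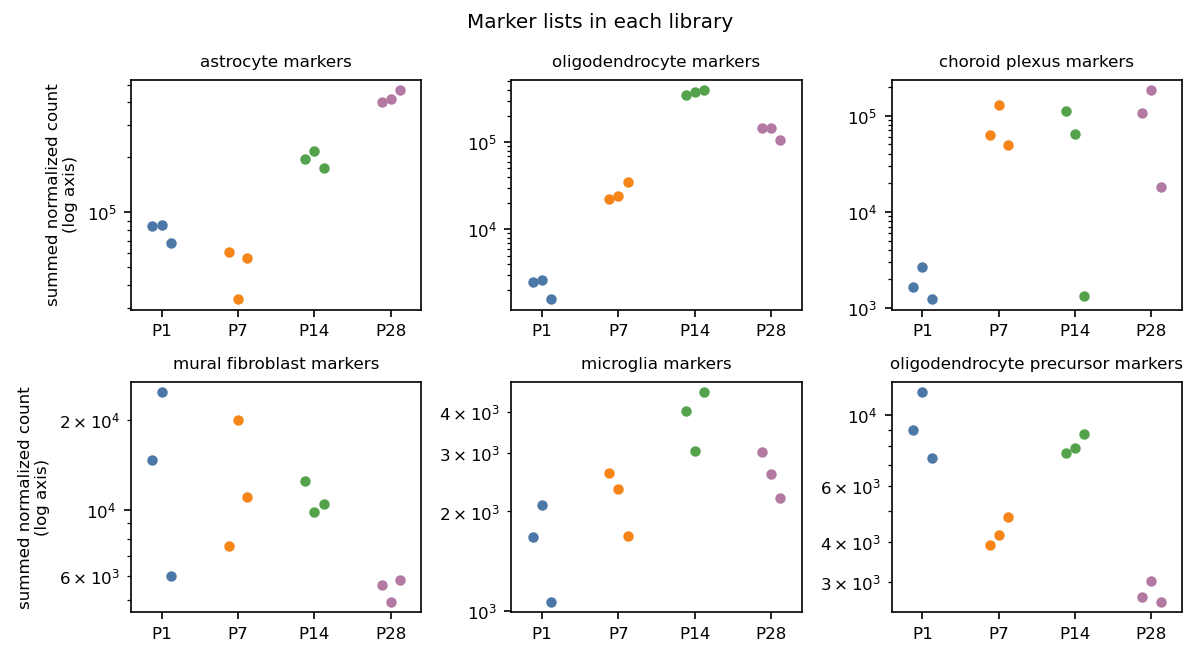
Summed normalized count of 6 marker lists (vertical axis, log scale) in the 3 libraries of each time point (points, in replicate order from left to right). Astrocyte markers were lowest at P7 and highest at P28, oligodendrocyte markers were highest at P14, and 1 of the P14 libraries had few choroid plexus markers.

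The other genes of lipoprotein assembly, transport and its control were taken from lists of 65 genes in 6 roles, of which 55 were tested. From P1 to P7, 2 were higher, 7 lower and 46 not called, with a median log2 fold change of -0.32. From P7 to P14, 12 were higher, 3 lower and 40 not called (median 0.42), and from P14 to P28, 6 were higher, 7 lower and 42 not called (median -0.26). The called genes were thus 9, 15 and 13 of 55, where 7.7%, 20.9% and 14.4% of all genes were called, and nothing is read from the difference for the whole list or for a role list below. The medians over all genes tested are given with the 8 genes above. The first count of 9 called genes was 4 without replicate 1 or 2 of P1, 5 without replicate 1 of P7 and 3 without replicate 2 or 3 of P7. The last count of 13 was 7 without any replicate of P14, and 5 with the P14 and P28 libraries alone. With those of P1 and P7 alone, the first was 17.

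The classical apolipoproteins of liver and gut were barely detected. Apoa1, Apoa2, Apoa4, Apob, Apoc3, Apoh and Apom were not tested, and the highest value of any of them in any library was 10.6 normalized counts (Apoh). Apoc1, a small exchangeable apolipoprotein, was the exception. It had 20.3, 162.9 and 23.5 normalized counts at P1, 58.9, 10.5 and 13.2 at P7, and 249, 190 and 164 at P14. From P7 to P14 it rose by 3.22 (SE 0.79, adjusted p = 0.00907). This call held without each library in turn, with 2.77 without replicate 2 of P7 and 3.96 without replicate 1 of P7.

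Of the 7 other efflux transporters, 1 rose from P1 to P7, 1 rose from P7 to P14 and 3 fell from P14 to P28, in steps where 7.7%, 20.9% and 14.4% of all genes were called. Abca2, a lysosomal lipid transporter known from oligodendrocytes, was the most abundant. It had 1131, 1242 and 1427 normalized counts at P7, 4086, 4273 and 3804 at P14, and 2334, 2482 and 2425 at P28, with no overlap between these time points. It rose by 1.68 (adjusted p = 2.73e-06) and then fell by 0.75 on the log2 scale (adjusted p = 0.00489), and like Abcg1 and Apod it was highest at P14. Abca3, the second most abundant, passed in no step, with means of 886, 650, 819 and 976.

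Abca7, a phospholipid transporter, had means of 91.3, 288, 273 and 83.7 normalized counts in order of age. It was called from P1 to P7 (1.70, adjusted p = 0.0452) and from P14 to P28 (-1.79, adjusted p = 0.0247). The first call was lost without any replicate of P1, P7 or P14 (adjusted p of 0.0513 to 0.204), with a pseudocount of 0.1 (0.0516), without the filter on low values (0.0532) and in edgeR with DESeq2 size factors (0.0501). The second was lost without replicate 1 or 2 of P14 or replicate 2 of P28 (0.0545 to 0.0994) and with the P14 and P28 libraries alone (0.102). Abca8a had 126, 171 and 123 at P14 and 55.5, 1.18 and 13.5 at P28. Its log2 fold change of -3.52 (adjusted p = 0.0236) was lost without any replicate of P14 (0.0616 to 0.0727), and edgeR with TMM gave -2.60 (adjusted p = 0.0706, or 0.0712 with DESeq2 size factors). With the P14 and P28 libraries alone the adjusted p was 0.0946. It was -2.28 without replicate 2 and -4.63 without replicate 1 of P28.

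Of the 16 receptors and uptake genes, none rose and 2 fell from P1 to P7, 2 rose and 2 fell from P7 to P14, and 2 rose and 2 fell from P14 to P28, against the same 7.7%, 20.9% and 14.4% of all genes. Lrp8, the receptor for reelin and Apoe on neurons, had 2328, 3528 and 2254 normalized counts at P7, 1133, 1404 and 1583 at P14, and 456, 442 and 472 at P28. It fell by 0.96 (adjusted p = 0.00459) and by 1.57 (adjusted p = 5.54e-04) on the log2 scale, the opposite direction to Lrp1 in the second week. Sorl1, a sorting receptor of the same family, rose from 837, 480 and 722 at P7 to 2187, 2258 and 1761 at P14 (1.63, adjusted p = 2.50e-04). Lrp8 and Sorl1 kept these calls without each library in turn.

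Of the 7 lipase and transfer genes tested, 1 fell from P1 to P7, 1 rose and 1 fell from P7 to P14, and 2 rose and 1 fell from P14 to P28 (all genes 7.7%, 20.9% and 14.4%). Pla2g7, a lipoprotein-associated phospholipase that removes oxidized phospholipids, was the most abundant. It had 2016, 1109 and 1763 normalized counts at P7, 7050, 10120 and 6554 at P14, and 18117, 15184 and 18974 at P28. It rose by 2.30 (adjusted p = 2.32e-05) and then by 1.16 (adjusted p = 0.00965), in the same steps as Lcat and Clu. Lipg, endothelial lipase, had 221, 196 and 147 at P1 and 40.6, 10.5 and 17.8 at P7 (-3.16, adjusted p = 0.0191), and 1 read in all at P14 and 0 at P28. The call from P1 to P7 was lost without replicate 1 or 2 of P1 or replicate 2 or 3 of P7 (0.0745 to 0.116), and with a pseudocount of 0.1 (0.173). Lipa, lysosomal acid lipase, was called in none of the 3 steps, with means of 386, 379, 558 and 300.1.

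Of the 13 genes of intracellular cholesterol handling tested, 1 rose and 2 fell from P1 to P7, 4 rose from P7 to P14, and 1 rose and 1 fell from P14 to P28 (all genes 7.7%, 20.9% and 14.4%). Npc1, which exports cholesterol from lysosomes, had 1601, 1313 and 1452 normalized counts at P1, 802, 876 and 969 at P7, and 1837, 1973 and 1298 at P14. Its rise from P7 to P14 (0.93, adjusted p = 0.00226) held without each library, while its fall from P1 to P7 (-0.72, adjusted p = 0.0264) was lost without replicate 1 or 3 of P1 or any replicate of P7 (0.0557 to 0.119). Cyp27a1, a cholesterol hydroxylase, rose from 5.57, 18.3 and 13.2 at P7 to 114, 153 and 97.7 at P14 (3.31, adjusted p = 0.00710). Gramd1b, a carrier of sterol from the plasma membrane, was higher by 1.12 from P1 to P7 (adjusted p = 0.0163), lost without replicate 2 of P1 or replicate 1 or 3 of P7 (0.0686 to 0.0816). Stard4, a soluble sterol carrier, had -1.77 from P14 to P28 (adjusted p = 0.0408), which was lost without 10 of the 12 libraries in turn, the exceptions being replicate 2 of P1 and replicate 1 of P28 (0.0516 to 0.143). Without the latter it was -2.38. It was also lost in edgeR with either scaling (0.0769 and 0.0767), without the filter (0.0518) and with the P14 and P28 libraries alone (0.181).

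Of the 11 nuclear receptors and regulators, 2 fell from P1 to P7, 3 rose from P7 to P14 and 1 rose from P14 to P28 (all genes 7.7%, 20.9% and 14.4%). Srebf1, a transcription factor of fatty acid synthesis and a known target of liver X receptors, had 1712, 1488 and 1383 normalized counts at P1, 667, 516 and 648 at P7, 1252, 1225 and 893 at P14, and 2400, 1467 and 1431 at P28. It fell by 1.33 on the log2 scale from P1 to P7 (adjusted p = 0.00212), the step in which Abca1 and Apoe fell. Abcg1 was not called in that step (-0.16, adjusted p = 0.855), and a part of the liver X receptors was not tested. Its rise of 0.87 from P7 to P14 (adjusted p = 0.0118) was lost without replicate 2 of P7 or replicate 1 or 2 of P14 (0.0518 to 0.0551), and with library totals (0.0658). Srebf2, which drives cholesterol synthesis, was called in none of the 3 steps, with means of 1662, 1072, 1337 and 1700.0. Pparg, a lipid-activated nuclear receptor, had 12.7, 10.5 and 6.20 at P7 and 73.1, 20.1 and 114 at P14 (2.44, adjusted p = 0.0366), lost without any replicate of P7 or replicate 1 or 3 of P14 (0.0739 to 0.138), and 3.15 without replicate 2 of P14. That call was also lost with library totals (0.0529), a pseudocount of 0.1 (0.0707) and no filter (0.0646).

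**Figure D5:**
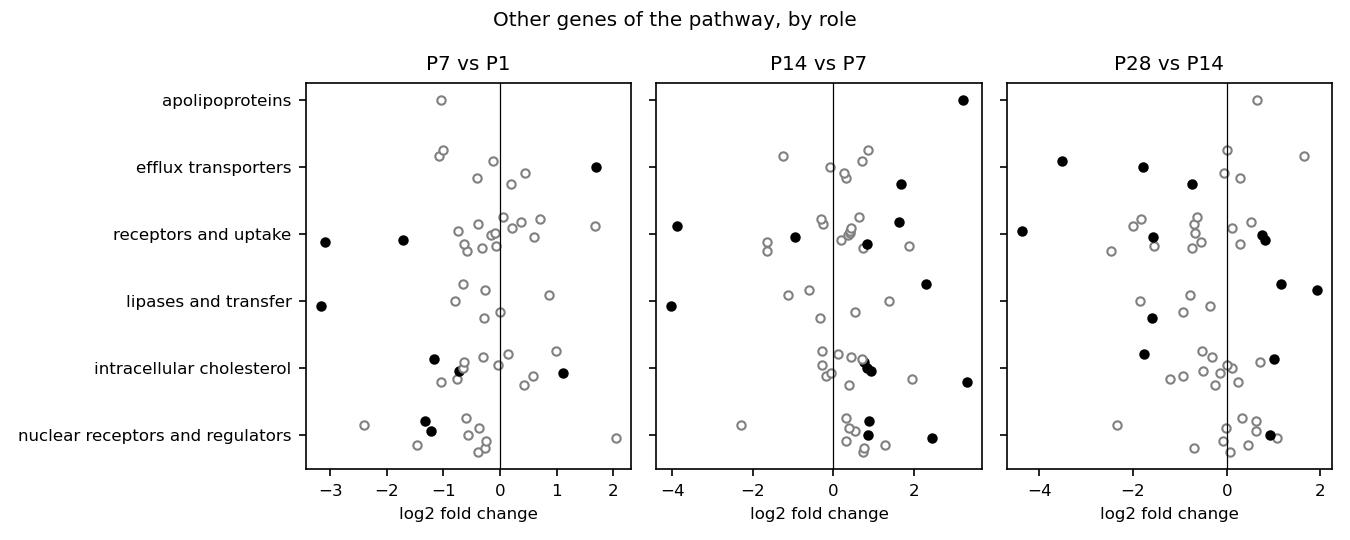
Log2 fold change (horizontal axis) of the 55 tested genes of the 6 role lists in the 3 consecutive steps, 1 point a gene, grouped by role. Filled points passed the adjusted threshold and open points did not. In the middle panel, 12 of the 15 filled points lie to the right of 0.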

How the data were processed

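RNA of GFP-sorted cerebellar cells was sequenced in 3 libraries per time point, and groups were taken from the sample labels. All 12 column names carry P28, so columns were matched by the names the labels give, with 0 left over. STAR alignment to mm10, counting over UCSC transcripts and DESeq2 normalization were done by the authors. What they deposited is therefore a signal, the read count of a gene divided by the size factor of its library. Undoing this gave whole reads for 100% of values (tolerance 0.001), used for depth and count-based alternatives. No replicates were found to be the same library in 12 pairs compared.

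limma (version 3.58.1, R 4.3.3) with a variance trend was fitted on log2(value + 1) over all 12 libraries for the 15464 genes that reached 10 in 3 or more libraries. The fold changes are on that scale and understate those of low genes. p-values were adjusted over all genes tested by the Benjamini-Hochberg method, and calls made at 0.05. The script was tested on simulated counts. Alternatives were edgeR (version 4.0.16) with TMM or DESeq2 size factors, DESeq2 (version 1.42.0), TMM or library totals in limma, pseudocounts of 0.1 and 10, other filters, only the time points compared, a replicate block, the threshold of the paper as read (unadjusted p under 0.05 with a log2 fold change over 0.75) and each library left out. GENCODE M21 (GRCm38, which is mm10) gave lengths, positions and overlaps.

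All 8 genes are named. In each role list the rule named the 2 most abundant tested genes and, among called genes with a mean of at least 50 at either time point of a consecutive step, those with the largest rise and fall. For each of the 8 genes the 2 with the nearest course are named. A few genes that this rule names are not reported here. Genes, lists and tests were chosen with earlier results of these data known. The alternatives for single pathway genes were added after seeing the data. Marker lists not described in the report summed as follows, as the lowest and highest library of P1, P7, P14 and P28: Bergmann glia (5 of 6 markers in the table) 17516 to 22239, 11397 to 15185, 39397 to 53107 and 98412 to 127843, border macrophages 541 to 2055, 811 to 902, 252 to 539 and 165 to 423, endothelial cells 791 to 3687, 1770 to 10663, 5905 to 6866 and 3896 to 5632, mural cells and fibroblasts 6034 to 24619, 7594 to 19952, 9856 to 12488 and 4927 to 5835, neurons 1108 to 2781, 5283 to 7315, 25776 to 50982 and 17218 to 21221, and granule neuron precursors 7356 to 12975, 17165 to 22880, 1091 to 1635 and 748 to 1447. Of 5 red blood cell markers, the 4 globin genes were listed at 0 in every library.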

Additional observations from a re-analysis of the deposited data

How the results depend on the processing

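Of the 384 fold changes of the 8 genes recomputed with 1 library left out, 358 kept their direction and their side of the threshold, 23 lost the call, 2 gained it and 1 reversed. Of 352 under the other settings, these numbers were 339, 10, 2 and 1. The reversals were Apod from P1 to P28 with library totals (-0.16 against 0.27) and Pltp from P1 to P7 without replicate 3 of P1 (-0.075 against 0.12, with a range of -0.075 to 0.32 over the libraries left out), neither of them called in either fit. The numbers of the 8 genes called were 4 to 5, 7, 2 to 6 and 6 to 7 with 1 library left out, for P7 against P1, P14 against P7, P28 against P14 and P28 against P1, where the fit to all libraries gave 5, 7, 5 and 7. For the 55 pathway genes these ranges were 3 to 10, 10 to 18, 7 to 16 and 16 to 24, against 9, 15, 13 and 22. Of the called changes of single pathway genes, 95 of 444 with 1 library left out and 38 of 399 under other settings lost the call. With only the time points compared, where the spread comes from those libraries alone, 17 pathway genes were called in the first step and 5 in the last. The fit to all libraries shares the spread of a gene over all ages. Log2 correlations between libraries of the same age were 0.925 to 0.948 at P1 and 0.949 to 0.964 at P7. They were 0.900 to 0.914 at P14 and 0.853 to 0.866 at P28. Without replicate 1, 2 or 3 of P28, 1373, 1469 and 1534 of all genes were called in the first step. Leaving out a P28 library does not change the fold change of a gene in that step, and acts through the shared spread and the filter. The part of each in these counts was not tested. With at least 10 in every library, which tests fewer genes, 13 pathway genes were called from P1 to P28. Over all genes, the calls in the first step were 1191, against 1808 with DESeq2 and 2810 with only the time points compared, a setting that gave 863 against 2232 from P14 to P28 and 3350 against 5350 from P1 to P28. Library totals moved the median of all genes to 0.10, -0.34, -0.35 and -0.67, and the higher calls from 1676 of 3227, 878 of 2232 and 2264 of 5350 to 1203 of 3678, 454 of 2395 and 1366 of 6549 in the last 3 comparisons. With at least 10 in every library the higher calls were 862 of 1524 from P14 to P28 and 2061 of 3637 from P1 to P28, and with only the time points compared they were 480 of 863 in the former. The replicate numbers were not taken to pair the samples, since 1 of 18 same-numbered pairs had deviations correlated above 0.1 (range -0.029 to 0.139), although 9 of the 12 libraries were most like a library of their own number. With the replicate block, 5, 7, 4 and 7 of the 8 genes and 8, 16, 14 and 22 pathway genes were called, and the calls lost were Pltp from P14 to P28 (adjusted p = 0.0518) and, among the pathway genes in the 3 steps, Abca7 from P1 to P7 (0.0590). With the longest transcript, the P28 level per kb was 22674 for Apoe, 6567 for Clu and 23.2 for Abcg1, against 14932, 3458 and 18.5. Counts of a gene in a library carry counting error, and Abcg1 and Lcat had as few as 83 and 81 reads.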
